A study of Mus musculus with 24 samples.

Results

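The early growth response genes Egr1, Egr2, Egr3 and Egr4 and the genes of their corepressors, Nab1 and Nab2, were followed in mouse hippocampus over the hours after fear conditioning. These 6 genes were found by their names in the deposited count table, which lists 47593 genes, and each name matched 1 row. The Egr proteins are zinc-finger transcription factors that bind GC-rich sites in promoters and enhancers. Their genes are immediate early genes: in neurons, synaptic activity switches them on within minutes through serum response factor with its Elk partners and through CREB, with no new protein needed. Egr1, also known as Zif268, is widely used as a marker of recently active neurons, and Egr1 and Egr3 are known for their part in memory. Nab1 and Nab2 bind Egr1, Egr2 and Egr3 and repress their targets through the chromatin remodeller Chd4 and its complex, and Nab2 is itself known as an Egr target.

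Hippocampal RNA came from male mice on the C57BL/6J background, aged 8 to 12 weeks, that were wild type (WT) or carried a knockout of Tob, the gene of an antiproliferative protein that acts in mRNA deadenylation. The naive mice of each genotype had no fear conditioning. The other mice received tones that ended with a foot shock in a conditioning chamber, and their hippocampi were collected 15 min, 1 h or 3 h later, so that the shock, the tone, the new chamber and the handling come together in every conditioned group. Each of the 8 groups had 3 libraries, from separate mice, and no control group had the chamber without the shock. The part of the gene that this Tob-KO line lacks was not given in the sources used here.

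The 24 libraries held 28847989 to 41595972 counts. Between libraries of a group, the chi-square of the counts over genes was 3.68 to 22.8 per degree of freedom, so no pair looked like 1 library deposited again. The targeted gene, Tob1, had a mean of 59.8 CPM (counts scaled to library size after TMM normalization over the 24 libraries) in the libraries labelled Tob-KO against 40.4 CPM in WT, a log2 fold change of 0.56 (SE 0.037, adjusted p = 1.17e-09, edgeR quasi-likelihood test with Benjamini-Hochberg adjustment, 24 libraries). This is not the direction that a loss of the whole gene would give. As the missing part of the gene was not given, a count over the whole gene cannot check the label. Every difference between genotypes given here is one between libraries labelled Tob-KO and libraries labelled WT. Neuronal markers were high in all libraries, at a summed 5321 to 6132 CPM over 6 genes, and markers of dentate gyrus, CA1 and CA3 were all present. Libraries differed most in choroid plexus markers, whose 8 genes summed to 23.7 to 4840 CPM, and a list of 5 markers of neocortical layers summed to 233 to 456 CPM.

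Promoter windows from RefSeq on GRCm38.p6 were searched for 4 of the 6 genes, Egr2, Egr4, Nab1 and Nab2. The promoters of Egr1 and Egr3 were not searched, so nothing is said here of their motifs. Each window held 250 bases before an annotated start and 50 after it, and it was searched on both strands for the CArG box, the site of serum response factor, for TGACGTCA, the cAMP response element bound by CREB, for its core TGACG, and for GCGNGGGCG, the Egr site. The core lies within the cAMP response element. The stretches below are shown because Egr2 and Egr4 were the genes called at both 15 min and 1 h, and because Nab1, which passed at neither time, is the one of the 4 with Egr sites. Capitals mark the matches, for Nab1 those of the Egr site alone. None of the 3 upstream stretches, those of Egr2 and Egr4, overlaps an annotated exon of its gene. They lie at chr10:67537316-67537565 and chr10:67537619-67537868 on the forward strand for Egr2 and at chr6:85513590-85513839 on the reverse strand for Egr4.
Egr2, upstream of the first start shown: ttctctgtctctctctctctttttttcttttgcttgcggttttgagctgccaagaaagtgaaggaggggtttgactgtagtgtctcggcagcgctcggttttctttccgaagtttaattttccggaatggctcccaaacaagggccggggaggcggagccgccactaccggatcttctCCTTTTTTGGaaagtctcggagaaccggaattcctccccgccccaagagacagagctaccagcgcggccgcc
Egr2, upstream of the second start shown: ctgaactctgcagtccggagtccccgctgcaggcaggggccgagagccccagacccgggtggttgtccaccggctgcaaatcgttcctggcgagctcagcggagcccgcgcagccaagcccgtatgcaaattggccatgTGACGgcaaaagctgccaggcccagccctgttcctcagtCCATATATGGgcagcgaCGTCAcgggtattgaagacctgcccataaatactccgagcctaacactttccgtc
Egr4: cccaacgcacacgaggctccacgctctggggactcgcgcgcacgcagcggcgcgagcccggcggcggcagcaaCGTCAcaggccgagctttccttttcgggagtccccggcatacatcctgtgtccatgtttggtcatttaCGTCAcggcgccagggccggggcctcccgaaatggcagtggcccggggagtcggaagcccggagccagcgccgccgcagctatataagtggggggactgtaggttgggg
Nab1, farthest from the start: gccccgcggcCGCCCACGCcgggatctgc
Nab1, middle: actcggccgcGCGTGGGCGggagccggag
Nab1, nearest to the start: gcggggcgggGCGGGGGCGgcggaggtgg

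Both Egr2 stretches shown held a CArG box that begins 72 bases before the start. Of the other Egr2 windows in the table, 2 overlap the second stretch and hold the same matches, and the one around the start at 67535499 held none of these motifs. In the second, TGACG cores stood at 111 and 55 bases before the start, one on each side of the box. The Egr4 stretch shared this element, with such cores at 177 and 109 bases, and had no CArG box in these letters. Of all 32851 promoter windows of this length, 1.63% held a CArG box and 20.8% held a TGACG core. The Nab1 sites began 141, 109 and 38 bases before a start within the reverse-strand gene, in a stretch that another transcript counts as exon, and 5.55% of all windows held such a site. Nab1 also had a TGACG core, at 123 bases before this start, so the core was not particular to Egr2 and Egr4. The Nab2 window held none of these motifs. A match of letters is a description of the sequence and says nothing of whether a factor was bound.

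Egr2 (ENSMUSG00000037868.15, chromosome 10, 67535475 to 67542188, forward strand of GRCm38) had the largest response of the 6. Its product is best known as a regulator of myelination by Schwann cells and is also induced in neurons. The naive WT libraries had 2.47, 1.77 and 1.12 CPM, and the naive Tob-KO libraries had 0.588, 0.628 and 1.15 CPM. After 15 min, WT had 15.5, 6.76 and 5.42 CPM, and Tob-KO had 8.95, 4.68 and 6.21 CPM. Every 15-min library stood above every naive library of both genotypes. After 1 h, WT had 9.01, 6.69 and 5.35 CPM, and Tob-KO had 5.43, 4.62 and 5.80 CPM, again above every naive library. After 3 h, WT was at 2.04, 1.56 and 3.31 CPM, and Tob-KO at 1.12, 0.683 and 1.32 CPM. In each genotype, replicate 3 was then above the naive range of that genotype. These levels rest on 18 to 529 counts per library, so Egr2 is the member with the least depth behind it.

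Egr1 (ENSMUSG00000038418.7, chromosome 18, 34859823 to 34864984, forward strand) was the most abundant member, and its naive levels already differed between libraries. In WT it was at 177, 130.0 and 126 CPM in naive mice, at 339, 152 and 170 CPM at 15 min, at 208, 255 and 204 CPM at 1 h, and at 135, 124 and 187 CPM at 3 h. In Tob-KO it was at 94.1, 80.05 and 110.3 CPM in naive mice, at 225, 135 and 176 CPM at 15 min, at 188, 202 and 208 CPM at 1 h, and at 121, 91.4 and 89.1 CPM at 3 h. At 1 h every library of both genotypes was above every naive library. At 15 min the groups overlapped in WT, where 2 of the 3 libraries were below the highest naive library, and did not overlap in Tob-KO. Of all genes, 20% did not overlap in that Tob-KO comparison, 9.53% with the 15-min libraries higher.

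Egr4 (ENSMUSG00000071341.4, chromosome 6, 85511121 to 85513589, reverse strand) encodes the member that, unlike the other 3 Egr proteins, lacks the domain that binds Nab proteins. In WT it was at 26.7, 23.0 and 24.9 CPM in naive mice, at 54.1, 31.5 and 32.5 CPM at 15 min, at 47.5, 49.8 and 44.7 CPM at 1 h, and at 24.05, 23.9 and 24.6 CPM at 3 h. In Tob-KO it was at 22.0, 23.7 and 21.9 CPM in naive mice, at 43.2, 29.6 and 38.8 CPM at 15 min, at 45.2, 41.8 and 35.3 CPM at 1 h, and at 25.9, 25.3 and 23.9 CPM at 3 h. All 12 libraries of 15 min and 1 h were above all 12 of the naive and 3-h groups.

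Egr3 (ENSMUSG00000033730.4, chromosome 14, 70077203 to 70082614, forward strand) ranged from 44.8 to 81.6 CPM over the 24 libraries, with group means of 50.8 to 68.4 CPM. In WT it was at 57.5, 58.0 and 58.6 CPM in naive mice, at 65.5, 44.8 and 51.7 CPM at 15 min, at 59.4, 65.9 and 60.5 CPM at 1 h, and at 62.6, 61.0 and 81.6 CPM at 3 h. In Tob-KO it was at 52.7, 48.9 and 50.9 CPM in naive mice, at 60.5, 47.1 and 50.7 CPM at 15 min, at 60.5, 54.0 and 59.6 CPM at 1 h, and at 55.6, 56.1 and 48.6 CPM at 3 h. The 1-h libraries were above the naive libraries within each genotype, and the 15-min libraries lay on both sides of them. At 1 h, 16.3% of all genes in WT and 21.4% in Tob-KO did not overlap naive mice. The genes higher at 1 h were 7.89% and 9.77% of all genes.

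Nab2 (ENSMUSG00000025402.12, chromosome 10, 127660918 to 127668568, reverse strand) was highest at 1 h. In WT it was at 34.0, 40.6 and 39.7 CPM in naive mice, at 48.8, 32.9 and 41.3 CPM at 15 min, at 46.2, 52.3 and 44.6 CPM at 1 h, and at 37.1, 37.1 and 41.5 CPM at 3 h. In Tob-KO it was at 43.8, 39.3 and 38.5 CPM in naive mice, at 50.4, 39.5 and 35.2 CPM at 15 min, at 50.9, 47.2 and 48.3 CPM at 1 h, and at 34.5, 36.9 and 38.7 CPM at 3 h. The 6 libraries of 1 h were above all naive and all 3-h libraries. Nab1 (ENSMUSG00000002881.14, chromosome 1, 52457294 to 52500679, reverse strand) ranged from 34.6 to 43.3 CPM over the 24 libraries, with group means of 37.0 to 42.5 CPM.

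**Figure D1:**
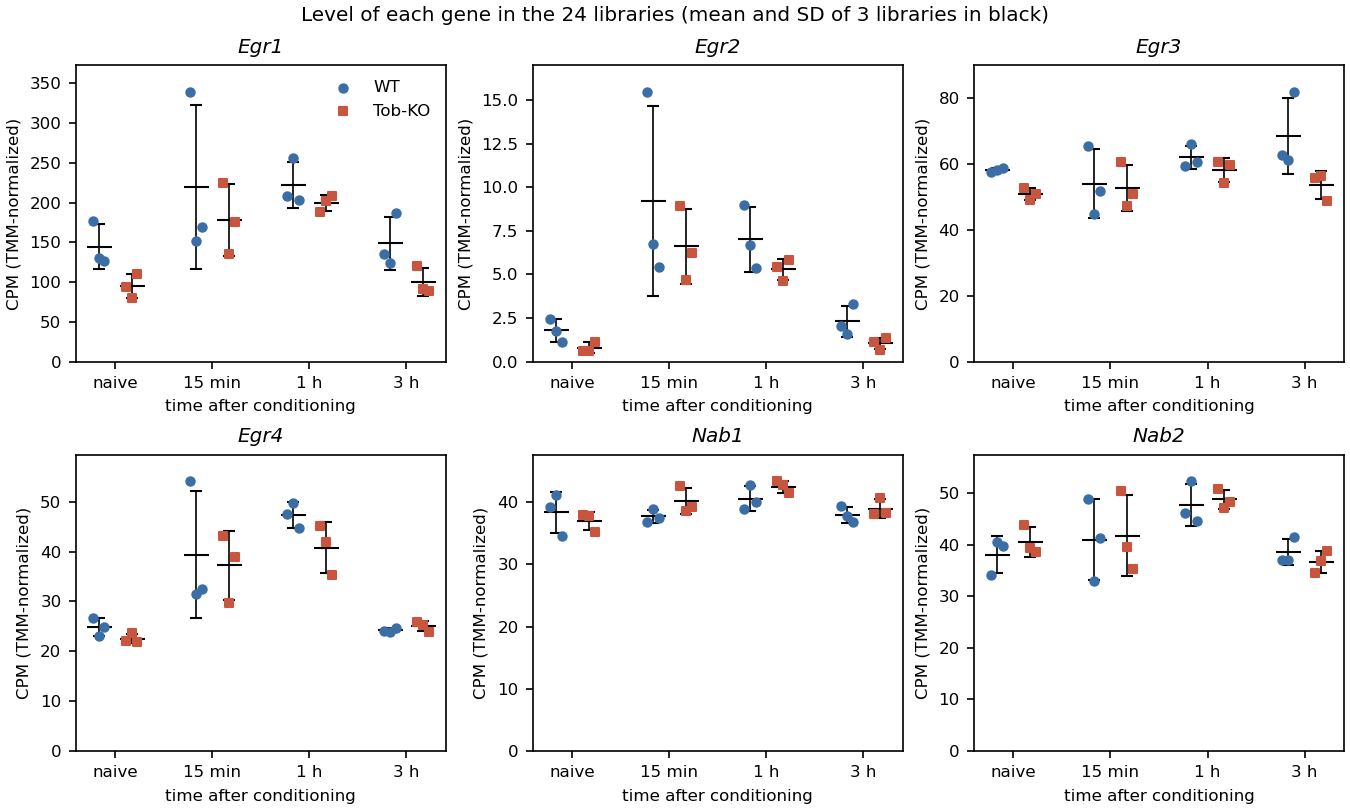
Level of each of the 6 genes (vertical axis, CPM after TMM normalization, from 0) in the 4 groups of each genotype by time, with WT as circles, Tob-KO as squares and the mean and SD of 3 libraries in black. Egr1, Egr2 and Egr4 were high at 15 min and 1 h, with WT 15-min replicate 1 highest of all (Egr1 at 339 CPM, Egr2 at 15.5 CPM, Egr4 at 54.1 CPM). Nab1 kept a narrow range (34.6 to 43.3 CPM), and Egr3 ran from 44.8 to 81.6 CPM.

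Changes over time were tested with both genotypes in one model, over 12 libraries with genotype as a factor (edgeR quasi-likelihood test, adjusted p of at most 0.05 over all genes tested). At 15 min, Egr2 rose by 2.66 on the log2 scale (SE 0.31, adjusted p = 0.00287) and Egr4 rose by 0.69 (SE 0.13, adjusted p = 0.0300). Egr1 had a log2 fold change of 0.76 (SE 0.19) that did not pass (adjusted p = 0.0843), and Egr3, Nab1 and Nab2 had −0.02, 0.05 and 0.07 (SE 0.082, 0.051 and 0.097). Thus 2 of 6 members passed, against 0.657% of the 19025 genes tested, of which 0.384% were higher. With 1 library left out, the share of all genes ran from 0.174% (without Tob-KO 15-min replicate 1) to 1.87% (without WT naive replicate 1), and 1 to 3 members passed. Egr2 and Egr4 were the members whose 15-min libraries did not overlap the naive ones, as for 1.4% of genes. The call of Egr4 was lost in 7 of the 12 fits with 1 library left out (adjusted p 0.0658 to 0.0838), without each naive library except WT replicate 1 and without Tob-KO 15-min replicates 1 and 3. Egr1 passed without WT naive replicate 1 (0.85, adjusted p = 0.0453), and it passed with 4 other settings of the model (log2 fold change 0.71 to 0.76, adjusted p 0.0144 to 0.0416).

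At 1 h, 5 of 6 members had risen, against 5.27% of 18882 genes, of which 2.2% were higher. The 1-h libraries of Egr1, Egr2, Egr4 and Nab2 did not overlap the naive ones, as for 3.79% of genes. Egr4 rose by 0.90 (SE 0.060, adjusted p = 1.39e-05), the lowest p of all genes in this comparison. Egr2 rose by 2.30 (SE 0.22, adjusted p = 0.000190), Egr1 rose by 0.85 (SE 0.11, adjusted p = 0.000856) and Nab2 rose by 0.30 (SE 0.055, adjusted p = 0.00723). Egr3 rose by 0.15 (SE 0.040, adjusted p = 0.0464), a call lost in 11 of the 12 fits with 1 library left out, all but the fit without WT 1-h replicate 1 (adjusted p in the others 0.0529 to 0.111). Nab1 had 0.15 (SE 0.047) and did not pass (adjusted p = 0.0908), except without WT naive replicate 2 (0.18, adjusted p = 0.0436). The calls of Egr1, Egr2, Egr4 and Nab2 held in all 12 fits.

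Between 15 min and 1 h, 0 of 6 members passed, against 0.222% of 18902 genes, and DESeq2 called 0 as well. Egr3, Nab1 and Nab2 had an unadjusted p under 0.05, as did 13.8% of genes (log2 fold changes 0.17, 0.10 and 0.23). The estimate was −0.35 (SE 0.23) for Egr2, 0.09 (SE 0.17) for Egr1 and 0.21 (SE 0.13) for Egr4. These estimates turned on WT 15-min replicate 1. Without it they were −0.08 for Egr2, 0.30 for Egr1 (adjusted p = 0.221) and 0.33 for Egr4 (adjusted p = 0.162), and both then joined the genes with an unadjusted p under 0.05. Which of these times holds the highest level was thus not resolved for any Egr gene.

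From 1 h to 3 h, 4 of 6 members fell, against 5.25% of 18813 genes, of which 2.83% were lower. The libraries of these 4 genes did not overlap, as for 3.47% of genes. Egr2 fell by 1.93 on the log2 scale (SE 0.21, adjusted p = 0.000306), Egr4 fell by 0.84 (SE 0.064, adjusted p = 1.94e-05), Egr1 fell by 0.78 (SE 0.11, adjusted p = 0.00177) and Nab2 fell by 0.36 (SE 0.048, adjusted p = 0.00106). Nab1 had −0.11 (SE 0.035, adjusted p = 0.0793) and Egr3 had 0.01 (SE 0.075). The mean of Egr3 over both genotypes was 60.0 CPM at 1 h and 60.9 CPM at 3 h. At 3 h against naive mice, 0 of 6 members passed, as did 0% of 18935 genes, with 9.24% at an unadjusted p under 0.05. Among the members, Egr3 was at such a p (0.0409, log2 fold change 0.16, SE 0.069), with 0.08 left without WT 3-h replicate 3, and the other 5 were within 0.38 of the naive level. By DESeq2, 0 members passed as well.

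Within one genotype, 3 libraries were set against 3, and a call also needed a fold change of at least 2. In WT at 1 h, Egr2 rose by 1.96 (SE 0.28, adjusted p = 0.0482), 1 of 2 genes called among 18233 (0.011%). This call was lost without any one of WT naive replicates 2 and 3 or WT 1-h replicates 1, 2 and 3 (log2 fold change 1.72 to 2.12, adjusted p 0.127 to 0.225). Egr4 in WT had 0.93 (SE 0.070, adjusted p = 0.00657), again the lowest p of all genes but under the limit of fold 2. In Tob-KO at 1 h, where 0.0491% of genes were called, Egr2 rose by 2.73 (SE 0.25, adjusted p = 0.00989) and Egr1 rose by 1.07 (SE 0.10, adjusted p = 0.0112). Without Tob-KO 1-h replicate 1 or 2 neither passed (adjusted p 0.0681 to 0.0982), and Egr1 also did not pass without 1-h replicate 3 (adjusted p = 0.0597) or without naive replicate 2 (log2 fold change 0.96, under the fold limit). Egr4 had 0.86 (SE 0.095, adjusted p = 0.0135), under fold 2.

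At 15 min, 0 members passed in WT (0% of genes called, 6.1% at an unadjusted p under 0.05) or in Tob-KO (0.0218% called, 13.2% at such a p). Egr2 had 2.35 (SE 0.41, adjusted p = 0.303) in WT and 3.05 (SE 0.34, adjusted p = 0.0601) in Tob-KO. It was called in both genotypes by DESeq2 (adjusted p 0.0198 and 7.68e-17), by edgeR's exact test (5.67e-05 and 8.51e-13), without the filter on low counts and with the spread taken from all 24 libraries. The labels do not pair mice by replicate number. Naive and 15-min Tob-KO libraries of the same number deviated together (correlations 0.557, 0.598 and 0.147), as did naive WT and 3-h Tob-KO libraries (0.691, 0.177 and 0.294). Choroid plexus markers deviated by −3.71, 2.38 and 1.32 (log2) in naive Tob-KO and by −3.41, 2.40 and 1.01 in 15-min Tob-KO. Their part in this was not tested. With the replicate number as a block, Egr2 was called at 15 min in Tob-KO (log2 fold change 3.03, adjusted p = 0.0145). WT 15-min replicate 1 decided much of the WT estimates: without it, Egr2 had 1.75 in place of 2.35, Egr4 had 0.36 in place of 0.66 and Egr1 had 0.15 in place of 0.61. At 3 h, 0 members passed in either genotype, with 0% of genes called in each; at an unadjusted p under 0.05 stood 3.49% of genes in WT, Egr3 among them (0.24, SE 0.10, and 0.09 without WT 3-h replicate 3), and 8.61% in Tob-KO, with no member. DESeq2 called 0 members in these.

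**Figure D2:**
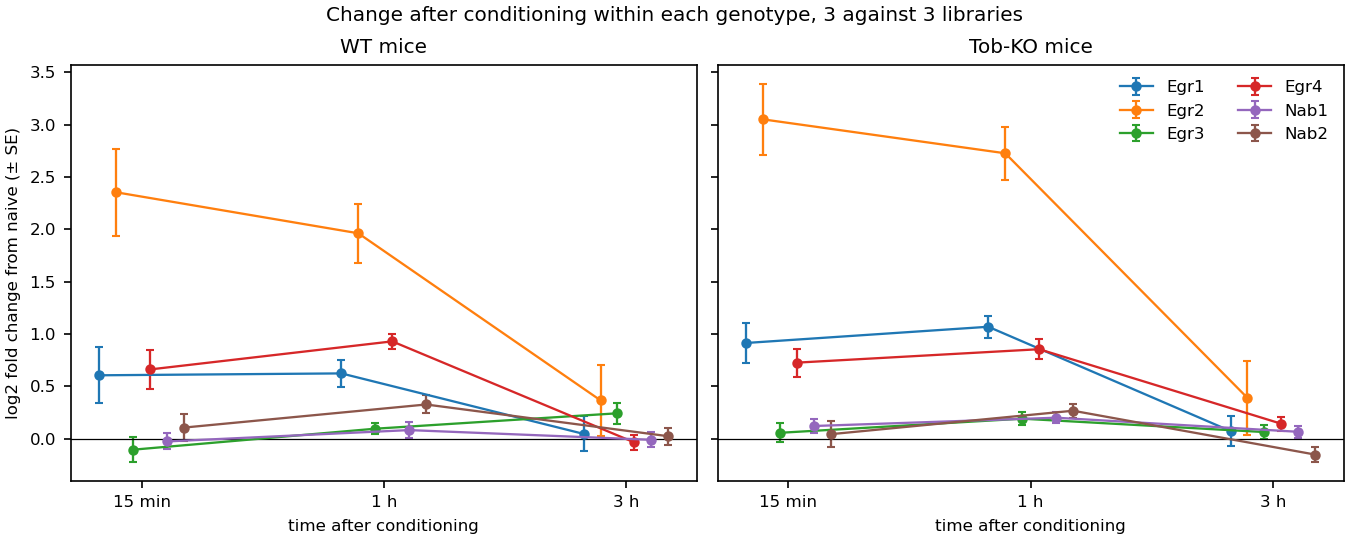
Log2 fold change of each gene from naive mice (vertical axis, with its SE) at the 3 later times, in WT (left) and in Tob-KO (right), 3 libraries against 3. Egr2 was highest in both panels (2.35 and 1.96 in WT, 3.05 and 2.73 in Tob-KO), followed by Egr1 and Egr4. At 3 h, Egr2 had 0.37 (SE 0.34) in WT and 0.39 (SE 0.36) in Tob-KO. Egr3 had 0.24 (SE 0.10) in WT then, and all other 3-h values were smaller in size.

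The response of the members did not differ detectably between genotypes. In the test of the interaction of genotype with time, 0 of 6 members passed at 15 min, 1 h or 3 h, against 0.00526%, 0% and 0% of genes, with 3.37%, 3.68% and 4.66% of genes at an unadjusted p under 0.05. Egr1 at 1 h was the one member at such a p (0.0370, adjusted p = 0.988), with a rise in Tob-KO that was 0.44 larger on the log2 scale (SE 0.19). For Egr2 the difference in rise was 0.70 (SE 0.62) at 15 min and 0.76 (SE 0.42) at 1 h, errors that leave room for sizeable differences in either direction at 15 min. With 1 library left out, the value for Egr2 ran from 0.38 (without WT naive replicate 1) to 1.29 (without WT 15-min replicate 1) at 15 min. At 1 h it ran from 0.46 to 1.16, and that of Egr1 from 0.28 to 0.58, both lowest without WT naive replicate 1 and highest without Tob-KO naive replicate 3. Which members stood at an unadjusted p under 0.05 also turned on single libraries. Without WT 15-min replicate 1, the 15-min difference was 1.29 for Egr2, 0.76 for Egr1 and 0.32 for Egr3, and all of these reached such a p, each with an adjusted p = 0.991. DESeq2 called 0 members here too.

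The estimates for Egr1, Egr2 and Egr3 were below 0 for Tob-KO against WT in naive mice and at 3 h, without passing the limits. This was not particular to the Egr genes. A list of 20 other immediate early genes, described further below, had median log2 fold changes of −0.30 in naive mice and −0.24 at 3 h. Its medians were −0.25 at 15 min and −0.05 at 1 h. Over all genes the medians were 0.006 in naive mice, −0.006 at 15 min, −0.001 at 1 h and −0.002 at 3 h. In naive mice the log2 fold change of Tob-KO against WT was −0.61 (SE 0.15, p = 0.000174, adjusted p = 0.207, edgeR exact test) for Egr1, −1.17 (SE 0.37, adjusted p = 0.898) for Egr2 and −0.19 (SE 0.050, adjusted p = 1) for Egr3. By DESeq2 Egr1 reached an adjusted p of 0.0286 there, still under fold 2. The libraries of the genotypes did not overlap for Egr1 and Egr3, as for 11.5% of all genes. At 3 h it was −0.57 (SE 0.17, adjusted p = 0.254) for Egr1, −1.14 (SE 0.33, adjusted p = 0.401) for Egr2 and −0.36 (SE 0.11, adjusted p = 0.486) for Egr3, and these 3 genes did not overlap, as for 12% of all genes. With 1 library left out, Egr1 at 3 h ran from −0.73 (without Tob-KO 3-h replicate 1) to −0.37 and Egr3 from −0.43 (without WT 3-h replicate 2) to −0.22, both smallest without WT 3-h replicate 3. Egr4, Nab1 and Nab2 were within 0.14 of WT at both times. At no time was a member called, where 0.0218% (naive), 0.555% (15 min), 0.033% (1 h) and 0.0274% (3 h) of genes were, nor by DESeq2 or the quasi-likelihood test with the same limits. An unadjusted p under 0.05 was reached by Egr1, Egr2 and Egr3 in naive mice (4.04% of genes) and at 3 h (3.97%), by 0 members at 15 min (8.05%), and by Egr2 and Egr4 at 1 h (5.34%).

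At 15 min the estimates for the 6 genes ran from −0.48 to 0.09, and each of the Egr genes changed sign without WT 15-min replicate 1 (Egr1 from −0.30 to 0.15, Egr2 from −0.48 to 0.12, Egr3 from −0.03 to 0.13, Egr4 from −0.08 to 0.22). At 1 h they ran from −0.41 for Egr2 to 0.07 for Nab1, and Egr2 had −0.19 without WT 1-h replicate 1. Over all 4 times, with 12 libraries against 12, the log2 fold change was −0.41 (SE 0.12, adjusted p = 0.124) for Egr1, −0.72 (SE 0.19, adjusted p = 0.0884) for Egr2 and −0.17 (SE 0.060, adjusted p = 0.207) for Egr3. It was −0.10 (SE 0.074) for Egr4, 0.04 (SE 0.030) for Nab1 and 0.02 (SE 0.057) for Nab2. Of the 6, 0 passed, against 0.462% of 19500 genes (13.3% at an unadjusted p under 0.05, Egr1, Egr2 and Egr3 among them). DESeq2 called Egr2 (−0.77, adjusted p = 0.0237), and so did the main test without WT 15-min replicate 3 (−0.81, adjusted p = 0.0494).

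**Figure D3:**
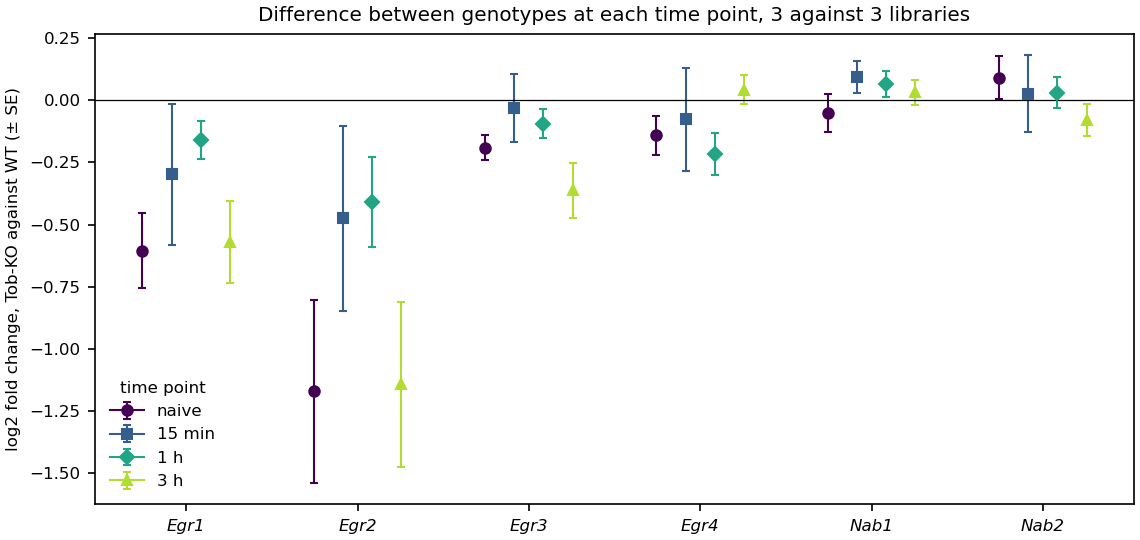
Log2 fold change of Tob-KO against WT (vertical axis, with its SE) for each gene at the 4 times, 3 libraries against 3. Egr2 was lowest in naive mice (−1.17) and at 3 h (−1.14), Egr1 was at −0.61 and −0.57, and Nab1 and Nab2 were near 0 at each time.

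The marker list of neocortical layers (Cux2, Rorb, Tbr1, Rgs4 and Lamp5, all counted in every library) moved with Egr1 within groups. Its summed level was 442, 293 and 371 CPM in naive WT and 270.1, 233 and 342 CPM in naive Tob-KO, so naive Tob-KO held the lowest libraries. It was 456 CPM in WT 15-min replicate 1 and 438 CPM in WT 3-h replicate 3, the libraries with the most Egr1 of their groups. Over 24 libraries, taken as deviations from their group means, the correlation with this list was 0.81 for Egr1, 0.56 for Egr2, 0.55 for Egr3, 0.45 for Egr4, −0.28 for Nab1 and 0.06 for Nab2, a description of libraries that share their tissue and depth. The list of neuronal markers had 0.75 with Egr1, 0.32 with Egr2, 0.66 with Egr3 and 0.48 with Egr4, so for Egr3 and Egr4 its values were above those of the cortex list. Astrocyte markers (4 genes, all counted, summed to 1077 to 1392 CPM) had −0.64 with Egr1 and −0.55 with Egr2, and CA3 markers had −0.58 with Egr1. In bulk tissue, more cells of a kind and more RNA per cell cannot be told apart.

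With the cortex list as a covariate, an alternative chosen after seeing the data, the rise at 1 h was 0.79 for Egr1 (adjusted p = 1.16e-05), and 5 members passed. At 15 min, Egr4 had 0.57 and no longer passed (adjusted p = 0.0592), Egr1 had 0.52 (adjusted p = 0.112), and Egr2 was the member left. The difference of Tob-KO from WT over all times went from −0.41 to −0.24 for Egr1 and from −0.72 to −0.55 for Egr2. Red cell markers (5 genes, all counted) had correlations of 0.60 for Egr1, 0.54 for Egr2, 0.64 for Egr3 and 0.76 for Egr4. They summed to 36.1 to 132.8 CPM over the libraries and were highest in WT 15-min replicate 1. Endothelial markers (4 genes, all counted, summed to 90.8 to 202 CPM) had −0.72 for Nab2, choroid plexus markers −0.63 for Nab2 and −0.51 for Egr3, and striatal markers (6 genes, summed to 77.4 to 125 CPM) −0.58 for Nab2. The Schwann cell list, with 3 of 5 genes under 1 CPM, had −0.19 for Egr2 and 0.58 for Nab1. The part of these cell types in the results was not tested. The fit with the cortex list does not test it either, since a covariate that moves with Egr1 takes up part of its differences whatever the reason.

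**Figure D4:**
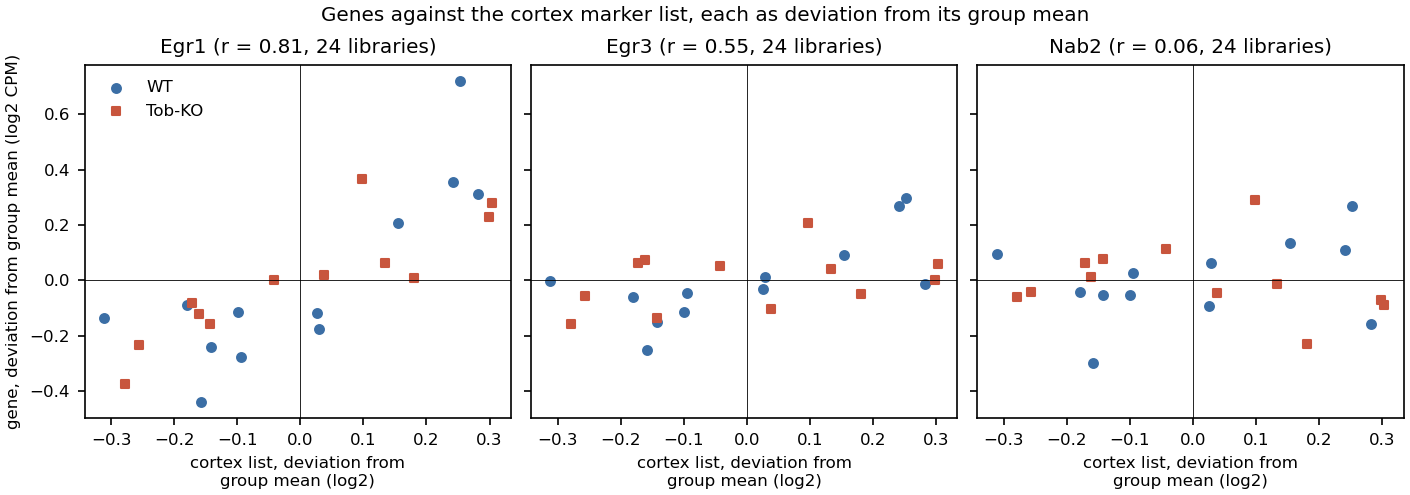
Deviation of Egr1, Egr3 and Nab2 from their group means (vertical axis, log2 CPM) against that of the cortex marker list (horizontal axis, log2) in the 24 libraries, with WT as circles and Tob-KO as squares. Egr1 rose with the list (r = 0.81), Egr3 less (r = 0.55), and Nab2 showed little slope (r = 0.06).

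Levels of different genes were compared per kilobase of annotated exon, with exon lengths of 4484 bp for Egr1, 3398 bp for Egr2, 4406 bp for Egr3, 2148 bp for Egr4, 4100 bp for Nab1 and 2941 bp for Nab2. In naive WT the order was Egr1 (32.2 ± 6.32 CPM per kb, SD, n = 3), Egr3 (13.2 ± 0.117), Nab2 (13.0 ± 1.21), Egr4 (11.6 ± 0.871), Nab1 (9.35 ± 0.822) and Egr2 (0.526 ± 0.198). Egr3, Nab2 and Egr4 did not differ from their neighbour in this order beyond the spread of the libraries. At 1 h in WT, Egr4 (22.0 ± 1.20 CPM per kb) stood second after Egr1 (49.6 ± 6.40) and above Nab2 (16.2 ± 1.37) and Egr3 (14.1 ± 0.787), and the ranges of these 4 genes did not overlap, with the lowest Nab2 library (15.2) just above the highest of Egr3 (15.0). Egr1 was first and Egr2 last in each of the 8 groups.

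Counts of Nab2 and Egr1 were set against each other as a ratio within a library, which needs no normalization to library size. The ratio is one of reads, not scaled to exon length, and says nothing of the proteins. There were 0.273 ± 0.0699 reads of Nab2 per read of Egr1 in naive WT (SD, n = 3) and 0.435 ± 0.0755 in naive Tob-KO, with ranges of 0.192 to 0.314 and 0.349 to 0.491. Nab2 itself had a log2 fold change of 0.09 (SE 0.087) between these groups. The ratio thus follows the difference in Egr1, which did not pass (adjusted p = 0.207, edgeR exact test). At 15 min the ratio was 0.201 ± 0.0514 in WT and 0.239 ± 0.0484 in Tob-KO. At 1 h the ratio was 0.215 ± 0.00934 in WT and 0.246 ± 0.0218 in Tob-KO, and at 3 h it was 0.265 ± 0.0396 and 0.375 ± 0.0788. The ratio at 1 h was below that of naive mice in every Tob-KO library, while in WT one naive library (0.192) lay below all those of 1 h. Nab1 and Nab2 were counted about equally, with 0.755 to 1.18 reads of Nab1 per read of Nab2 over the 24 libraries.

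**Figure D5:**
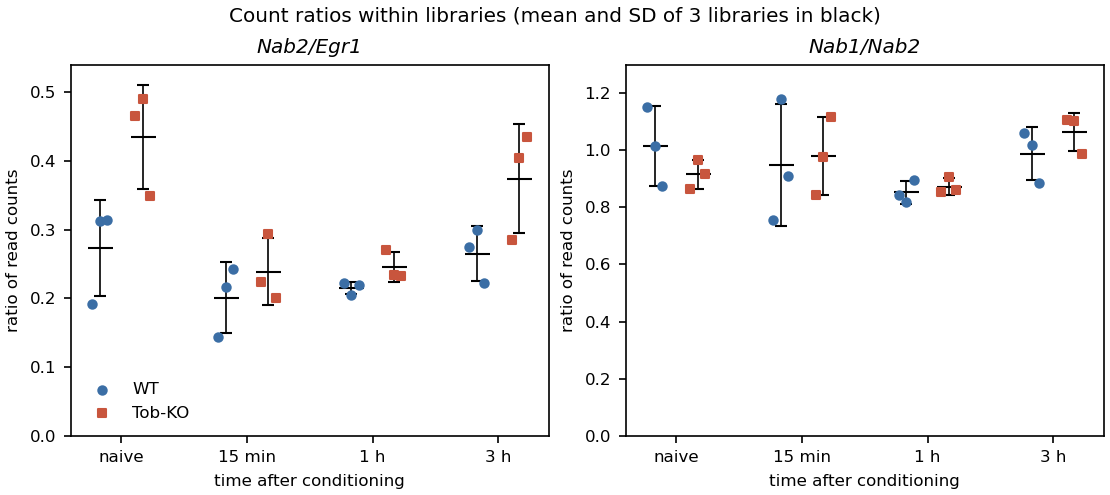
Ratio of read counts within each library (vertical axis, from 0), Nab2 to Egr1 on the left and Nab1 to Nab2 on the right, by time, with WT as circles, Tob-KO as squares and the mean and SD of 3 libraries in black. The Nab2 to Egr1 ratio was highest in naive Tob-KO (0.349 to 0.491), and the Nab1 to Nab2 ratio stayed between 0.755 and 1.18.

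The genes with the most similar pattern were taken as the 3 with the highest Pearson correlation of log2 CPM over the 24 libraries, among 14448 genes of at least 1 CPM, as a description of libraries that share groups and tissue. Egr1 was most like Nr4a1 (0.91), Egr2 (0.91) and Fos (0.91). Egr2 was most like Fos (0.96), Junb (0.93) and Egr1 (0.91), and Egr4 was most like Junb (0.92), Gadd45b (0.89) and Sik1 (0.88). These are immediate early genes or, for Gadd45b and Sik1, other genes known to respond to activity. Egr3 was most like Homer1 (0.83), whose short form is induced by activity and acts at the postsynaptic scaffold, Acvr1b (0.77) and St8sia5 (0.76). Among the genes most like Nab2 were Dusp5 (0.91) and Mcl1 (0.89), and Nab1 was most like Nup50 (0.80), Hnrnpab (0.75) and Ipmk (0.71), none of which is an Egr gene.

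Among the members themselves the correlation was 0.91 for Egr1 with Egr2, 0.86 for Egr1 with Egr4 and 0.87 for Egr2 with Egr4, and 0.24 for Egr3 with each of Egr2 and Egr4. Once the group means were taken off, Egr1 and Egr3 had 0.82, against 0.52 over the raw levels. Within groups Nab2 had 0.73 with Egr3 and 0.49 with Egr1, and Nab1 had −0.01 with Egr1 and 0.15 with Nab2.

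The pathway around the family was read from 4 lists in the tests of both genotypes together. Of 24 upstream regulators, 23 were tested. At 15 min, where 0.657% of all genes were called, 0 had risen and 1 had fallen, Mkl1, a coactivator of serum response factor, by 0.24 (adjusted p = 0.0183). At 1 h, where 5.27% of all genes were called, 2 had risen and 1 had fallen: Srf itself by 0.19 (adjusted p = 0.00463) and Creb1 by 0.18 (adjusted p = 0.00984) upwards, and Elk1, at −0.26 (adjusted p = 0.0309), downwards. Srf fell again from 1 h to 3 h, by 0.21 (adjusted p = 0.00270). With 1 library left out, the call of Mkl1 at 15 min held in 8 of 12 fits and that of Elk1 in 4 of 12, while those of Srf and Creb1 held in all. The median of the list was 0.003 at 15 min and 0.02 at 1 h, against medians of 0.006 and 0.003 over all genes.

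Of the 19 partners of Egr and Nab proteins, 0 passed at 15 min or 1 h. From 1 h to 3 h, 3 of the 18 tested fell and 1 rose. Gatad2a and Chd4, parts of the NuRD complex that Nab proteins recruit, fell by 0.20 (adjusted p = 0.0157) and 0.17 (adjusted p = 0.00378), the coactivator Ep300 fell by 0.13 (adjusted p = 0.0155), and Mta3, another NuRD subunit, rose by 0.11 (adjusted p = 0.0270), a call that held in 7 of 12 fits with 1 library left out. The list's median in that step was −0.02, against 0.003 over all genes, beside the background of 5.25%.

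Of 26 genes known as Egr targets, 23 were tested, and 1 passed at 15 min (0.657% of all genes), 2 at 1 h (5.27%) and 2 from 1 h to 3 h (5.25%). Arc, a regulator of AMPA receptor trafficking at synapses that Egr proteins and other early factors switch on, rose by 1.19 (SE 0.18, adjusted p = 0.0155) at 15 min and by 1.05 (SE 0.11, adjusted p = 0.000257) at 1 h and fell by 1.33 (SE 0.18, adjusted p = 0.00133) from 1 h to 3 h. Id4, an inhibitor of helix-loop-helix factors, rose by 0.24 (adjusted p = 0.0443) at 1 h and fell by 0.22 (adjusted p = 0.0397) to 3 h, calls that held in 2 and 3 of 12 fits with 1 library left out, while those of Arc held in all. The other 21 targets tested did not pass in these steps, and 0 targets passed at 3 h against naive mice, where 0% of all genes did. The list's median was 0.07 at 15 min and at 1 h, against 0.006 and 0.003 over all genes.

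Of 20 other immediate early genes, all tested, 7 had risen at 15 min (0.384% of all genes were higher), 11 had risen at 1 h (2.2% of all genes), and 14 fell from 1 h to 3 h (2.83% of all genes were lower). The largest rises at 15 min were those of Fos (2.10, adjusted p = 0.00318), Cyr61 (1.67, adjusted p = 0.00532), Npas4 (1.61, adjusted p = 0.00278) and Btg2 (1.21, adjusted p = 0.000632), so that Egr2 at 2.66 had a larger estimate than any of these. Npas4, a neuronal factor that answers calcium entry, and Btg2, a relative of Tob, fell between 15 min and 1 h, by 1.32 (adjusted p = 0.00179) and 0.89 (adjusted p = 0.00130), a step in which 0 of the 6 Egr and Nab genes passed. The list's median was 0.58 at 15 min, 0.55 at 1 h and −0.57 from 1 h to 3 h, and −0.007 at 3 h against naive mice. Between genotypes in naive mice, the target Arc stood at −0.54 on the log2 scale (adjusted p = 2.10e-05, edgeR exact test) and the early gene Nr4a1 at −0.40 (adjusted p = 0.00103), and at 15 min the target Fn1 had −0.46 (adjusted p = 0.0187). All of these were under fold 2 and so were not called. Fn1 was chosen for naming after its value was seen.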

How the data were processed

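The authors purified poly(A) RNA, made directional libraries and sequenced paired-end reads. They mapped these to GRCm38 with STAR 2.6.1d in nf-core/rnaseq and counted them on genes with HTSeq 0.9.0 in OmicsBox. The table the authors deposited holds raw counts, without normalization. The annotation release, the strand setting and the handling of duplicates were not given in the sources used here, so overlapping and antisense genes are uncertain. PCR reads carry no molecular identifiers. Of the gene names, 27 were dates and were not assigned. All columns of the table were used.

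Counts were tested in R 4.3.3 with edgeR 4.0.16 after TMM normalization, on genes that reached 0.2 CPM in 2 or more libraries of the comparison, and p-values were adjusted over all genes. All 6 members passed this filter in each comparison. Genotypes at one time were compared with the exact test and the limits of the study's methods (adjusted p and p of at most 0.05, fold of at least 2), with SE from the quasi-likelihood fit. Changes over time, interactions and the difference over all times used the quasi-likelihood test, with the fold limit where 6 libraries were compared. Comparisons with naive mice share those libraries. DESeq2 1.42.0 was an alternative. The tests were run on simulated data first. Levels are CPM over 24 libraries; correlations used log2 CPM with a prior count of 2. Figures and motif searches used Python 3.11.15.

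The 6 genes, the lists and the tests were chosen with earlier results of these data known. The text names the 6 genes, Tob1, the 3 genes most like each member, and in each step over time up to 4 genes called per list. A member of the cortex list, which was then summed without it, and a gene most like Nab2 are not reported here. Same-numbered replicates were checked for pairing. The deviations of all 3 pairs correlated above 0.1 for naive and 15-min Tob-KO (0.557, 0.598 and 0.147). They also did for naive WT and 3-h Tob-KO (0.691, 0.177 and 0.294), groups that differ in genotype and time, and for no others. The labels do not tie the number to anything. Coordinates and exon lengths come from the annotation of GRCm38, promoters from RefSeq.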

Additional observations from a re-analysis of the deposited data

How the results depend on the processing

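Of 773 member values under other settings, 740 kept their direction and their side of the threshold, and 57 of the values with 1 library left out changed sign, none of them of a called change. DESeq2 called 1 member (Egr2) over all times against 0. A fold limit of 2 left 1 member (Egr2) in the steps of both genotypes together, against 2 at 15 min, 5 at 1 h and 4 from 1 h to 3 h; the limit removes smaller changes by construction. The cortex list as a covariate left 1 member at 15 min against 2, and turned Egr1 at 3 h against naive to −0.11 and Egr3 from 1 h to 3 h to −0.048. At 15 min within WT and within Tob-KO, DESeq2, the exact test, no filter, the spread of 24 libraries and the replicate block each called 1 member (Egr2) against 0. The adjusted limit without the fold called 2 members (Egr2 and Egr4) in WT at 1 h against 1. Counts over all genes, behind the percentages, moved more. With both genotypes together at 15 min they were 125, against 736 with DESeq2, 338 with no filter, 848 with the spread of 24 libraries and 55 with the cortex list. From 15 min to 1 h they were 42, against 379, 136, 80 and 97, and 13 with the block. From 1 h to 3 h they were 988, against 645 with the spread of 24 libraries. Over all times they were 90, against 293 with DESeq2 and 50 with the cortex list. Between genotypes at 15 min they were 102, against 35 with DESeq2, 6 with the block and 0 with the quasi-likelihood test. With 1 library left out, these counts ran from 33 (without Tob-KO 15-min replicate 1) to 355 (without WT naive replicate 1) at 15 min, from 523 (without Tob-KO 1-h replicate 2) to 1164 against 995 at 1 h, from 5 (without WT 1-h replicate 3) to 123 (without WT 15-min replicate 1) from 15 min to 1 h, from 570 (without Tob-KO 1-h replicate 2) to 849 from 1 h to 3 h, and from 41 (without Tob-KO 3-h replicate 2) to 141 (without Tob-KO 3-h replicate 1) over all times. Between genotypes they ran from 4 to 53 (without Tob-KO naive replicate 3) against 4 in naive mice, from 30 (without WT 15-min replicate 3) to 252 (without Tob-KO 15-min replicate 1) at 15 min, from 4 to 155 (without WT 1-h replicate 1) against 6 at 1 h, and from 3 to 16 (without Tob-KO 3-h replicate 1) against 5 at 3 h. The causes of these changes were otherwise not tested. The labels do not give the replicate numbers as a pairing of samples. With the replicate block, Egr1 was also called at 15 min over both genotypes (0.71, adjusted p = 0.0416), Egr3 was not at 1 h (adjusted p = 0.0680), and no other call of a member changed. Among the list genes named, the block also ended the calls of Elk1 at 1 h and of Mta3 from 1 h to 3 h.

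With 1 library left out, the members called were 0 to 1 over all times, 1 to 3 at 15 min and 4 to 5 at 1 h in both genotypes together, 0 to 1 in WT at 1 h and 0 to 2 in Tob-KO at 1 h. Values that changed sign, of which 0 were called and the largest was 0.48 in size, ran as follows. Over all times, Tob-KO against WT was −0.017 to 0.046 for Nab2. With both genotypes together, Egr3 was −0.085 to 0.036 at 15 min and −0.068 to 0.058 from 1 h to 3 h, and Egr1 was −0.025 to 0.14 at 3 h against naive. Between genotypes at 15 min, Egr1 was −0.50 to 0.15, Egr2 −0.76 to 0.12, Egr3 −0.15 to 0.13, Egr4 −0.21 to 0.22 and Nab2 −0.13 to 0.17, and at 1 h Nab2 was −0.012 to 0.10. The interaction at 15 min was −0.22 to 0.081 for Nab2 and −0.068 to 0.37 for Egr4, that at 1 h −0.10 to 0.027 for Nab2 and −0.16 to 0.025 for Egr4, and that at 3 h −0.14 to 0.23 for Egr1 and −0.28 to 0.41 for Egr2. In WT at 15 min, Nab1 was −0.092 to 0.027, Nab2 −0.040 to 0.24 and Egr3 −0.27 to 0.012. In WT at 3 h, Egr4 was −0.088 to 0.015, Nab1 −0.079 to 0.046, Nab2 −0.056 to 0.074 and Egr1 −0.16 to 0.21. In Tob-KO, Egr3 was −0.055 to 0.14 and Nab2 −0.12 to 0.15 at 15 min, and Egr1 was −0.075 to 0.20 at 3 h. At 18 to 529 counts per library, depth limits Egr2 most.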
